A study of Mus musculus with 4 samples.

Results

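Imprinted genes outside the *H19*-*Igf2*, *Kcnq1* and *Dlk1*-*Dio3* domains were examined in mouse ES (embryonic stem) cells, pluripotent cells derived from early embryos. The list names 32 genes of 16 domains, among them those of *Peg3*, *Snrpn*-*Ube3a*, *Mest*, *Igf2r*, *Grb10*, *Gnas* and *Nnat*. The genes were chosen for their known imprinting. Of these, 30 are among the 22718 genes with values, and *Peg10* and *Slc22a2* were not analysed here. By textbook knowledge 15 of the 30 are expressed mainly from the paternal allele and 15 mainly from the maternal allele.

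An imprinted gene is transcribed mainly from the copy inherited from 1 parent, because the germ line leaves DNA methylation at a control region on 1 parental copy only. This can be the expressed or the silent copy of a gene. Many imprinted genes act on growth, the placenta, behaviour and metabolism, and paternally and maternally expressed genes often lie side by side in a domain with a shared control region. For several genes of the list imprinting is known only for some tissues or transcripts, such as *Gnas*, *Grb10*, *Ddc*, *Commd1* and *Blcap*. The reads were not separated by allele, so the values are the sum over both alleles and parental origin was not measured.

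RNA was sequenced from 1 wild type line and from 1 line labelled *Prep1*-/- (KO2), both of the C57Bl6 strain and grown in serum with leukemia inhibitory factor. The labels name a kit that selects poly(A)+ RNA and does not mark strand. The study speaks of transcripts from the sense strand, and how strand was assigned is not stated. Prep1, encoded by *Pknox1*, is a homeodomain protein of the TALE class that binds DNA together with Pbx proteins. Prep1 binding was mapped by ChIP-seq, against input DNA, with an antibody to Prep1 in wild type ES cells, for which the labels give the C57BL/6 strain and the protocol names the R1 line. The methods state that the antibody also recognizes the related Prep2 weakly. Each genotype has 1 RNA library and the ChIP has 1 peak list, so no difference below has a replicate check and no p-value is given. Fewer cells of a type and less RNA per cell cannot be told apart in such samples.

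The deposited counts add up to 29596294 reads for wild type cells and 25717811 for the library labelled *Prep1*-/-. The methods state fewer reads per sample than these sums, the reason is not given, and if the counts exceed the fragments sequenced the counting intervals below are too narrow. *Pknox1* itself had 505 and 332 reads, with a KO/WT ratio of 0.736, so its reads were not lost. Counts per gene do not show which exons the reads cover. By immunoblot, the study reports loss of the Prep1 protein in its *Prep1*-/- ES cell lines, KO2 among them. Of the ES cell markers, 8 of 8 passed RPKM 1, and their summed RPKM was 1833 and 2089. Their ratios ran from 0.801 for *Zfp42*, the only one below 1, to 1.58 for *Klf4*. Down-regulation is a wild type RPKM above 1 with a ratio below 0.7, met by 13.3% of the 14254 genes that pass RPKM 1 in at least 1 library. Of the 5 primitive endoderm markers that pass RPKM 1, *Gata4*, *Gata6* and *Dab2* were down-regulated, while *Sox7* and *Lama1* had ratios of 1.39 and 1.12, and the sum over all 8 was 20.2 and 16.6. Of the trophoblast markers, the 4 that pass RPKM 1 (*Cdx2*, *Eomes*, *Hand1* and *Krt7*) were down-regulated, *Elf5* had 3 and 7 reads and *Tpbpa* 0 in both libraries, and the sum over the 6 with values was 65.4 and 29.4. Of the 4 fibroblast markers that pass RPKM 1, *Twist2* was down-regulated and *Col1a1* had a ratio of 1.36. Under RPKM 1, *Postn* had 6 and 33 reads, *Col3a1* 27 and 37, *Fap* 0 in both libraries and *Lum* 0 and 2. The sum over all 8 fibroblast markers was 26.0 and 31.0. Of the 4 neural markers that pass RPKM 1, *Nes* was down-regulated with a ratio of 0.684 and *Pax6* had a ratio of 1.83. *Sox1* and *Tubb3* had ratios of 1.26 and 0.965. The sum of 7 neural markers was 62.9 and 55.7. The part of these cell types in the results below was not tested.

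Among the genes of the list, the peak with most motif matches was at *Peg3*, whose protein is a zinc finger factor of growth and maternal behaviour. *Peg3* spans chr7:6656603-6683132 on the minus strand (mm9), and 2 of the 3902 Prep1 peaks lie at its 5′ end. The first, chr7:6682768-6683545, covers the annotated start with 32-fold enrichment over input. The second, chr7:6679864-6682160, lies in the first intron, 0.972 to 3.27 kb downstream of the start, with 146-fold enrichment, which is higher than 94.5% of all peaks. The promoter and first intron of *Peg3* are known as the control region of the domain, which is methylated on the maternal allele and holds a tandem repeat.

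The intron peak holds 12 matches to TGANTGNCA, letters of the decameric site bound by Prep1 with Pbx, searched on both strands. All 12 read in the direction of *Peg3* transcription, and neighbouring matches lay 55 to 329 bases apart with a median of 139 bases. The 9 letters were TGAATGACA in 8 matches, TGAGTGACA in 2, TGATTGACA in 1 and TGACTGACA in 1. The 4 bases before them were ATCT in 7 of the 12, and the base after them was G in 9. Of all 3902 peaks, 1987 held no match, 1575 held 1, 267 held 2, 43 held 3 and 30 held 4 or more. Only 3 peaks held 12 matches or more, and this peak is one of them. This peak is 2297 bases long, against a median of 680 bases for all peaks, and the counts were not adjusted for length. The motif was found in 49.1% of the 3902 peaks and in 9.02% of 22380 windows around the starts of protein-coding genes, from 500 bases before to 100 after the start. A match is a description of letters and not a measured binding site. With a motif search program, the study found its decameric site in a larger share of these peaks. A peak without a match to the 9 letters may thus still hold that site.

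Of these sequences, the match in the start peak and the 5 matches of the intron peak nearest to the start are shown, since they let the repeated unit be compared. Each is read from mm9 on the minus strand, 5′ to 3′, with 20 bases on each side and the match in capitals. The start sequence, 0.12 kb upstream of the start, lies outside any annotated gene, and the others lie in the intron and outside exons.
chr7:6683228-6683276: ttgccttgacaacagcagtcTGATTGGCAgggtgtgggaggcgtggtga
chr7:6681741-6681789: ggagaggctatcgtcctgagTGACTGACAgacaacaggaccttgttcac
chr7:6681661-6681709: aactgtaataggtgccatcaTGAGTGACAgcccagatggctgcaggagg
chr7:6681606-6681654: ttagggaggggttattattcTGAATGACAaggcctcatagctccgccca
chr7:6681522-6681570: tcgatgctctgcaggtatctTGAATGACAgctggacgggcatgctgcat
chr7:6681345-6681393: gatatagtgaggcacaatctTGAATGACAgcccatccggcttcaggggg
The intron matches differ from each other at the fourth letter of the motif and keep TGACA at its end. The match near the start ends in TGGCA, so it is not found by the stricter form TGANTGACA, which all 12 intron matches fulfil.

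**Figure D1:**
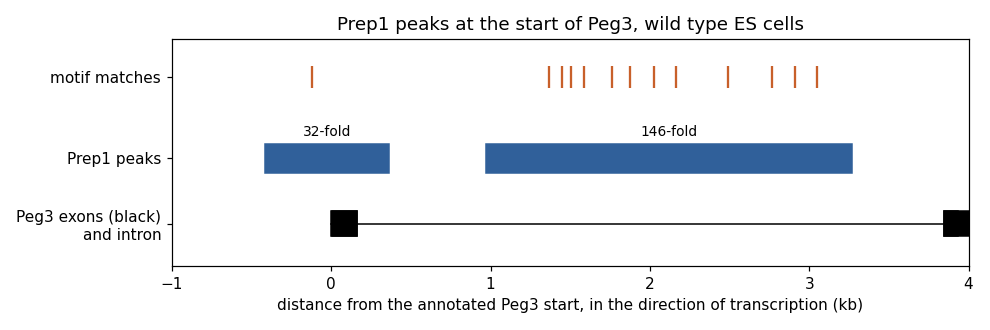
Map of the 5′ end of *Peg3*, with the distance from the annotated start in kb on the x axis, exons in black, the Prep1 peaks of wild type ES cells as blue bars with their fold enrichment over input, and the 13 motif matches as orange marks. The 12 matches of the intron peak lie between 1.367 and 3.05 kb downstream, while the start peak holds 1.

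*Peg3* was among the abundant transcripts of the list. It had 13306 reads in wild type cells and 10211 in the library labelled *Prep1*-/-, with RPKM of 45.2 and 38.8. RPKM is the number of reads per kb of transcript, scaled to the size of the library, as deposited. The KO/WT ratio, the RPKM of the library labelled *Prep1*-/- over the wild type RPKM, was 0.858, with an exact 95% interval of 0.836 to 0.881. Intervals here are Clopper-Pearson intervals of the reads of both libraries and cover counting error only, since reads are not independent molecules.

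The neighbours of *Peg3* gave low values. *Usp29*, a paternally expressed gene of the ubiquitin-specific protease family, is known to start next to *Peg3* and to run the other way. Its reads were 103 and 136, with RPKM of 0.232 and 0.342 and a ratio of 1.47 (1.13 to 1.93). The annotation used here holds only 2610 bases of *Usp29* exon, 209.8 kb from the nearest peak, whereas the deposited RPKM imply a length of about 15128 bases, so its distance to the *Peg3* peaks is not that of its known start. *Zim1*, a maternally expressed zinc finger gene, had 48 and 28 reads, and its ratio of 0.662 had an interval of 0.394 to 1.06. Neither reached RPKM 1 in a library, and the wild type RPKM of *Zim1* was 0.278 against 45.2 for *Peg3*.

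Over the whole list, 21 of the 30 genes had RPKM above 1 in at least 1 library, and 9 did not. The wild type RPKM of the 21 ran from 1.63 for *Mkrn3* to 207 for *Mest*. With the ratios used in the study, a gene was called down-regulated as above, and up-regulated when its ratio exceeded 1.5 and its RPKM in the library labelled *Prep1*-/- exceeded 1. By its text, the study set the RPKM limit on wild type cells for both directions. With that limit, 1 gene of the list and 4.52% of 13795 genes were up-regulated here. The study reports a larger number of up-regulated genes, and the reason for the difference is not known. Of the 21 genes, 6 were down-regulated (28.6%), against the 13.3% of all genes. Scaling to a median ratio of 1 left 4 (19.05% against 11.04% of all genes), without *Sgce* and *Copg2*. Adding 1 to each RPKM left only *Grb10* and *Plagl1* (9.52% against 8.47%). One gene was up-regulated, which is 4.76% of the 21 against 6.91% of all. The down-regulated genes were *Magel2*, *Sgce*, *Copg2*, *Plagl1*, *Grb10* and *Gatm*, which lie in 6 different domains, and the up-regulated gene was *Ddc*. The nearest values to the lower threshold were 0.699 for *Sgce* inside and 0.746 for *Gnas* outside.

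By counting error alone, the interval of the ratio lay below 1 for 14 of the 21 genes and above 1 for 3, against 36.3% and 20.7% of all 14254 genes. For the paternally expressed genes it lay below 1 in 6 of 12 and above 1 in *Ddc*, *Zrsr1* and *Nnat*. Among the maternally expressed genes it lay below 1 in 8 of 9, and that of the other, *Ppp1r9a*, held 1. The classes follow known imprinting, which for *Ube3a* is that of neurons and for *Gatm* that of placenta. Expression by allele was not measured in these cells. When the libraries were scaled by their summed reads or to a median ratio of 1, *Snrpn* and *Ndn* also lay above 1, and the counts below 1 stayed at 6 and 8. The difference between the parental classes was not tested, because each rests on the same pair of libraries. Whether an interval excludes 1 also depends on the reads of a gene. The part of read depth in these shares was not tested.

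Of the genes with at least 20 reads in the libraries together, the ratio was below 1 in 6 of 14 paternally expressed genes, in 11 of 13 maternally expressed genes and in 59.5% of all 15588 such genes. The median log2 ratio, with 0.1 added to each RPKM, was 0.05 for the paternally expressed genes and -0.41 for the maternally expressed genes. It was -0.08 for all genes and -0.26 for the whole list. The ratios of the 14 ran from 0.538 to 1.85 and those of the 13 from 0.521 to 1.62, so the classes overlap widely, and the difference of the medians was not tested.

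**Figure D2:**
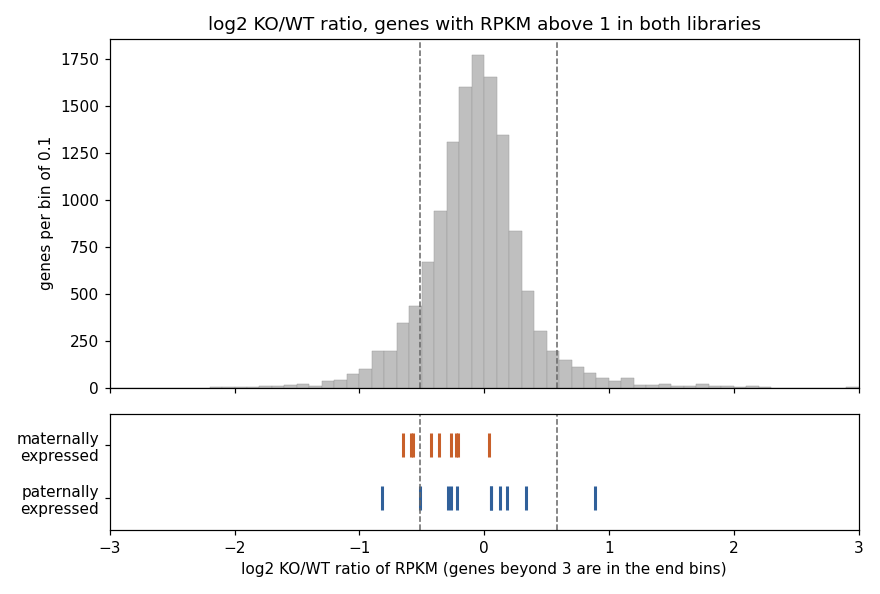
Distribution of the log2 KO/WT ratio over the 13218 genes that exceed RPKM 1 in each library (grey bars, genes per bin of 0.1), with the imprinted genes that pass the same filter as marks below, and dashed lines at ratios of 0.7 and 1.5. The maternally expressed genes lie at or left of the middle of the distribution apart from *Ppp1r9a*, and the paternally expressed genes lie on both sides, with *Ddc* at 0.89 farthest to the right.

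The maternally expressed genes with most reads were *Gnas* and *Grb10*. *Grb10* encodes an adaptor that restrains growth downstream of the insulin receptor. Its reads were 31963 and 19061 and its RPKM 186 and 124, a ratio of 0.667 (0.655 to 0.679). *Gnas* encodes the stimulatory G protein alpha subunit and, from other starts, further transcripts of either parental origin. Its reads were 45967 and 30650, with RPKM of 85.4 and 63.7 and a ratio of 0.746 (0.735 to 0.756). Both intervals lie wholly below 1 and do not overlap each other. The reads of *Gnas* are not separated by transcript, and the maternal-only, paternal-only and unimprinted forms are counted together.

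*Ddc*, which encodes the aromatic amino acid decarboxylase of dopamine and serotonin synthesis, lies beside *Grb10* on chromosome 11 and went the other way. It had 351 and 581 reads and RPKM of 6.09 and 11.2, with a ratio of 1.85 (1.62 to 2.12). Within 1 Mb of *Grb10*, the 3 other genes above RPKM 1 in each library had ratios of 1.22 to 1.34, so *Grb10* was the only one of these below 1.

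*Igf2r*, the receptor that clears the growth factor Igf2, had 5161 and 4000 reads, RPKM of 24.6 and 21.3 and a ratio of 0.867 (0.831 to 0.903). *Plagl1*, a zinc finger transcription factor that arrests the cell cycle, had 4105 and 2086 reads. Its RPKM was 8.53 and 4.85 and its ratio 0.568 (0.539 to 0.599), the lowest of the expressed genes after *Magel2*. Within 1 Mb of *Plagl1*, 3 of the 9 other genes above RPKM 1 in each library also had ratios below 0.7, and their median was 0.883.

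At the *Mest* domain the reciprocally imprinted genes were both lower. *Mest*, a putative hydrolase used as a marker of mesoderm, had 6716 and 4914 reads and RPKM of 207 and 170, a ratio of 0.818 (0.788 to 0.849). *Copg2*, a subunit of the COPI coat of transport vesicles, had 1168 and 703 reads and RPKM of 10.4 and 7.01, a ratio of 0.673 (0.612 to 0.740). The genes overlap at their 3′ ends on opposite strands, and without strand the reads of the overlap cannot be told apart.

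**Figure D3:**
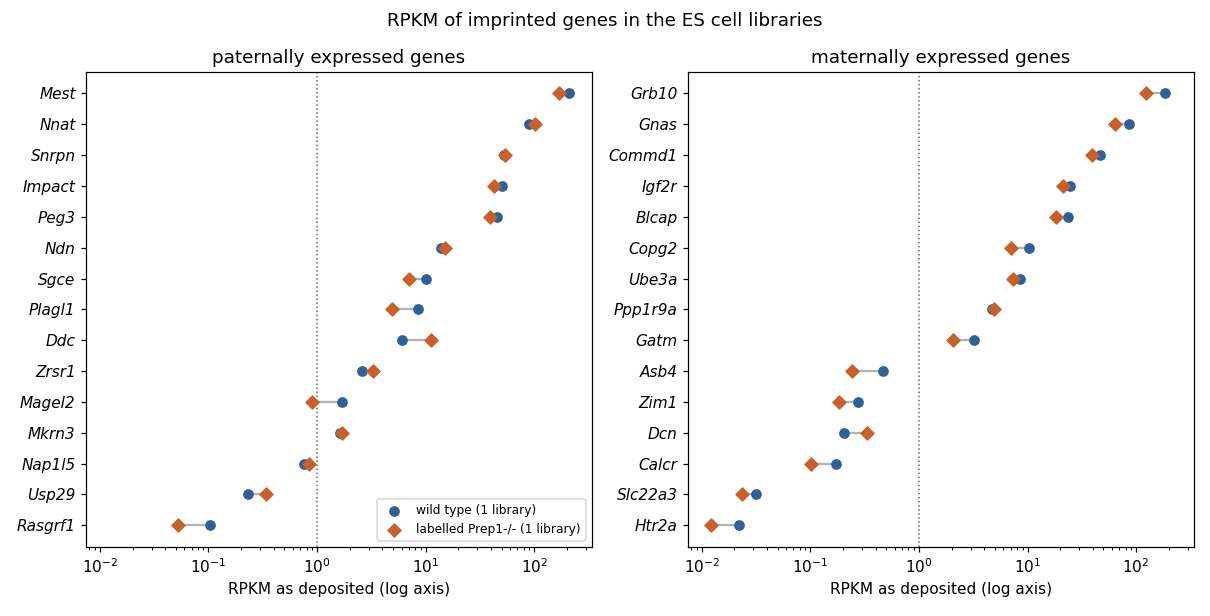
RPKM (log axis) of the 30 imprinted genes in the wild type library (blue circles) and the library labelled *Prep1*-/- (orange diamonds), by the parental allele known to be expressed, with a dotted line at RPKM 1. Wild type values run from 0.0219 for *Htr2a* to 207 for *Mest*, and the values of each gene in the 2 genotypes lie close together on this scale.

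The *Snrpn*-*Ube3a* domain corresponds to the human Prader-Willi and Angelman region, and its genes did not move together. *Snrpn*, which encodes a protein of the spliceosome, had 2263 and 2106 reads and RPKM of 52.1 and 54.2, a ratio of 1.04 (0.980 to 1.10). *Ndn*, a MAGE family gene, had 713 and 698 reads with RPKM of 13.7 and 15.05, a ratio of 1.09 (0.985 to 1.22). Both intervals hold 1.

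*Magel2*, a second MAGE gene downstream of *Ndn*, had 103 and 49 reads. Its RPKM was 1.69 and 0.907 and its ratio 0.538 (0.371 to 0.754), so this call rests on few reads near the RPKM limit. *Mkrn3*, a RING finger gene linked to the timing of puberty, had 83 and 77 reads, RPKM of 1.63 and 1.70 and a ratio of 1.04 (0.751 to 1.43). *Ube3a*, the ubiquitin ligase of Angelman syndrome, is maternally expressed in neurons and had 1351 and 1035 reads, RPKM of 8.49 and 7.28 and a ratio of 0.857 (0.789 to 0.930).

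In the *Peg10*-*Sgce* domain, *Sgce*, the sarcoglycan of myoclonus-dystonia, had 679 and 424 reads. Its RPKM was 10.02 and 7.002 and its ratio 0.699 (0.617 to 0.789), so its interval runs across the threshold. *Ppp1r9a*, an actin-binding regulator of protein phosphatase, had 1430 and 1312 reads, RPKM of 4.74 and 4.86 and a ratio of 1.03 (0.951 to 1.11). The remaining maternally expressed genes there were under RPKM 1. *Asb4* had 57 and 26 reads with a ratio of 0.521 (0.308 to 0.825), and the calcitonin receptor gene *Calcr* had 16 and 8 with 0.592 (0.207 to 1.38).

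*Nnat*, a membrane proteolipid of neural and endocrine cells, lies within an intron of *Blcap*, a gene named for bladder cancer. *Nnat* had 6813 and 6918 reads and RPKM of 89.4 and 102, a ratio of 1.14 (1.10 to 1.17). *Blcap* had 2923 and 2036 reads and RPKM of 23.6 and 18.4, a ratio of 0.779 (0.736 to 0.824). The host and the nested gene thus lay on opposite sides of 1, with intervals that do not overlap.

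*Zrsr1* and *Commd1* form a second pair of this kind, in which the paternally expressed gene lies within an intron of the other. *Zrsr1*, a gene related to a splicing factor, had 273 and 308 reads and RPKM of 2.61 and 3.29, a ratio of 1.26 (1.07 to 1.49). *Commd1*, a gene of copper handling, had 1975 and 1473 reads and RPKM of 46.9 and 39.2, a ratio of 0.834 (0.779 to 0.893). Here too the nested gene was above 1 and the host below it, although reads in unspliced host RNA and in the nested gene cannot be told apart.

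The remaining genes with RPKM above 1 were *Impact* and *Gatm*. *Impact*, a regulator of translation under amino acid shortage, had 757 and 564 reads and RPKM of 50.6 and 42.2, a ratio of 0.833 (0.746 to 0.930). *Gatm*, an enzyme of creatine synthesis with imprinting known in placenta, had 157 and 89 reads and RPKM of 3.24 and 2.06, a ratio of 0.637 (0.483 to 0.827).

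Below RPKM 1, *Nap1l5* had 16 reads in each library and *Dcn*, a proteoglycan gene, had 8 and 12. *Rasgrf1*, a Ras exchange factor of neurons, had 10 and 4 reads. *Slc22a3*, a cation transporter gene, had 2 and 1, and *Htr2a*, a serotonin receptor gene, had 1 and 0, where 0 reads allow up to 3. The interval of the ratio held 1 for each of these 5 genes.

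**Figure D4:**
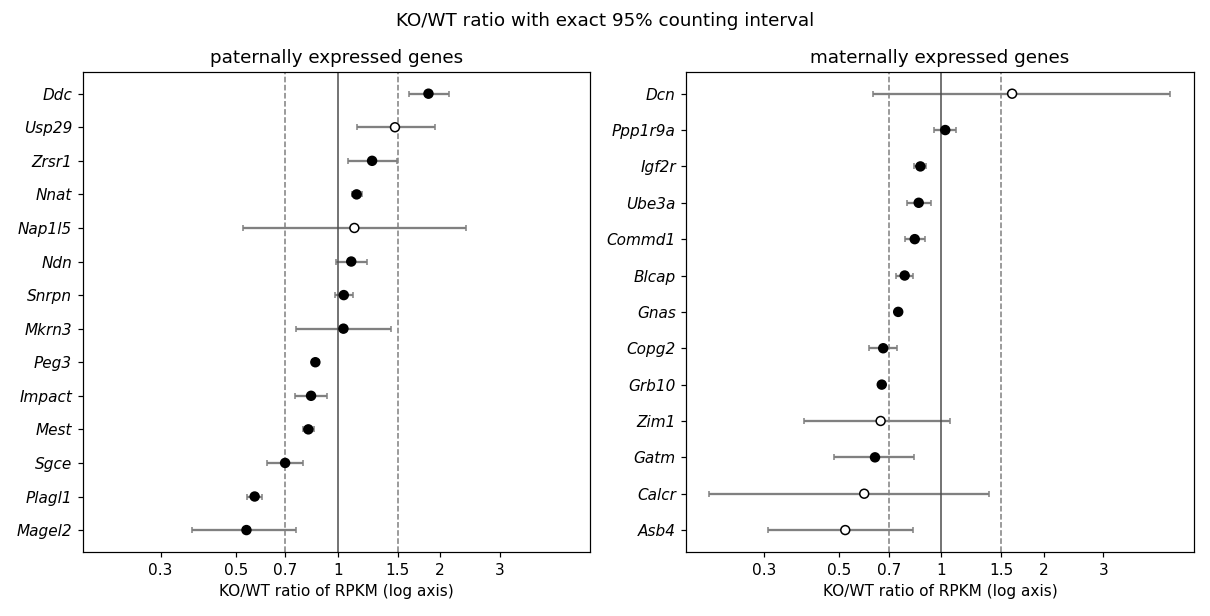
KO/WT ratio of RPKM (log axis) with its exact 95% counting interval for the 27 genes with at least 20 reads, by parental allele, with dashed lines at 0.7 and 1.5. Filled circles mark the 21 genes that pass RPKM 1, and open circles those below it. *Ddc* is the only filled circle right of 1.5, and the 6 left of 0.7 are 3 paternally and 3 maternally expressed genes.

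Levels between these genes should be read with care, because the lengths behind the deposited RPKM differ from the annotation used here. The implied length was 0.147 to 5.80 times the length of all annotated exons, with a median of 0.807. By RPKM the wild type order began with *Mest* (207), *Grb10* (186), *Nnat* (89.4) and *Gnas* (85.4). By reads per kb of annotated exon, scaled to the summed reads, it began with *Gnas* (139), *Nnat* (126), *Grb10* (118) and *Mest* (57.6). The same 4 genes led on both scales, but their order depended on the length used.

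Prep1 peaks were counted at a gene where they overlapped it or lay within 20 kb of its start. This was so for 9 of the 30 genes (30%), against 21.0% of the 21446 genes with coordinates. Of the genes with RPKM above 1, 9 of 21 had a peak (42.9%), against 26.1% of all expressed genes. The genes of the list are long, with a median span of 45.3 kb against 14.7 kb for all genes, and the part of gene length in this share was not tested. The window from 500 bases before to 100 after the start held a peak at *Peg3* and *Copg2* only, which is 6.67% of the 30 against 7.60% of all genes. The 9 genes, *Peg3*, *Mkrn3*, *Impact*, *Nnat*, *Ddc*, *Copg2*, *Blcap*, *Gnas* and *Gatm*, share 9 peaks, with 2 at *Peg3* and 1 common to *Nnat* and *Blcap*.

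The strongest of these peaks was at *Copg2*. It lies at chr6:30846246-30847481, covers the *Copg2* start and that of the divergent gene *4930412F09Rik*, and has 161-fold enrichment, above 96.0% of all peaks. It holds no match to the motif. The start of *Mest*, the control region of this domain, lies 173 kb from it.

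At *Gnas* the peak at chr2:174120562-174121514 has 76-fold enrichment and covers annotated starts of *Nespas*. *Nespas* is the paternally expressed antisense transcript of the *Gnas* domain, and its promoter is known to lie in a region with maternal germ line methylation. The nearest annotated *Gnas* start is 1.85 kb away. *Nespas* itself was not analysed here. No match to the motif was found in this peak.

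The peaks at other genes were weaker, between 7 and 27-fold, against a median of 21-fold over all peaks. Those of *Nnat* (chr2:157386749-157387383, 10-fold), *Mkrn3* (chr7:69564070-69564527, 15-fold) and *Impact* (chr18:13131176-13131770, 7-fold) lie within 1 kb of the gene's start and downstream of it. The *Nnat* and *Mkrn3* peaks overlap coding exons, and that of *Impact* lies in an intron and holds 1 match to the motif. The promoter or first intron of each of these paternally expressed genes is known to be methylated on the maternal allele.

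The *Ddc* peak (chr11:11722716-11723001, 14-fold) is 75.0 kb downstream of the main start, at the annotated start of a short *Ddc* transcript. That of *Gatm* (chr2:122455928-122456665, 27-fold) lies 18.9 kb upstream of *Gatm* and covers starts of *Spata5l1*, which makes it nearer to another gene. Neither holds a match to the motif. In all, 3 of the 9 peaks held a match, the pair at *Peg3* and the one at *Impact*.

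The ratios of genes with and without a peak overlapped. Among the 21 genes with RPKM above 1, the median ratio was 0.833 for the 9 with a peak and 0.845 for the 12 without, with ranges of 0.637 to 1.85 and 0.538 to 1.26. Of the 6 down-regulated genes, *Copg2* and *Gatm* had a peak, and the up-regulated *Ddc* had one, against 26.1% of all expressed genes.

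Factors that maintain imprints were measured in the same libraries. Of 9 genes, among them *Zfp57* and *Trim28*, which protect methylated control regions, and *Dnmt1* and *Uhrf1*, which copy methylation after replication, none passed either threshold, against 13.3% and 6.91% of all genes. *Trim28* had RPKM of 883 and 1032 and *Zfp57* 157 and 172. *Dnmt1* had 93.2 and 109, and *Uhrf1* 27.9 and 35.9. The ratios of these 4 lay between 1.10 and 1.29, that of *Ctcf* was 1.10 and that of *Zfp445* 1.06. *Setdb1*, *Ehmt2* and *Dppa3* were below 1, at 0.894, 0.914 and 0.921.

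For comparison, 5 of 10 expressed genes of the *H19*-*Igf2* and *Kcnq1* domains were down-regulated, with ratios as low as 0.140 for *H19*, and 1 of 3 of the *Dlk1*-*Dio3* domain was, against 13.3% of all genes. The median log2 ratio was -0.54 and -0.04 in these domains, against -0.26 for the list described here and -0.08 for all genes, and the differences between the lists were not tested.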

How the data were processed

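The authors aligned ChIP-seq reads with BWA, called peaks with MACS against input and deposited a peak list on mm9 whose score is a rounded fold enrichment. They sequenced poly(A)+ RNA as paired-end reads, assigned them with RSEM to Ensembl release 63, analysed them with DESeq and deposited a read count and an RPKM per gene. Program versions are not given in the sources used here. The deposited RPKM follows the read count plus 1, so the interval of the ratio of counts was multiplied by 1.12, the factor that turns (count plus 1) ratios into RPKM ratios. Genes with RPKM listed as Inf (85 in each library) were left out.

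The members and lists were chosen with earlier results of these data known. Every member is named. Genes were placed on mm9 (NCBIM37) with GENCODE M1, where 21446 of 22718 genes were found. Peaks are given in 1-based coordinates. With 1 library per genotype no count test was possible. Alternatives set first were other scalings, pseudocounts, filters, thresholds, peak distances and a stricter motif. The wild type RPKM limit for up-regulation was added after seeing the data. The tools were scipy 1.17.1, pandas 2.3.3, numpy 2.4.6 and matplotlib 3.10.9 under Python 3.11.15.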

Additional observations from a re-analysis of the deposited data

How the results depend on the processing

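No paired analysis was possible because each genotype has 1 library, and no library could be left out. The 6 down-regulated genes became 5 with scaling by summed reads (without *Sgce*) and 4 with scaling to a median ratio of 1 (without *Sgce* and *Copg2*). They became 2 (*Grb10* and *Plagl1*) with 1 added to RPKM, 11 without an RPKM filter and 0 with thresholds of 0.5 and 2. The 1 up-regulated gene became 2 without a filter (*Ddc* and *Dcn*) and 0 with the wider thresholds, and stayed at 1, *Ddc*, under the other alternatives. Without a filter and with thresholds of 0.5 and 2, the share of all genes was not counted in either direction. The counts of the list under these settings are thus not compared with all genes. The median log2 ratio of the paternally expressed genes lay between 0.05 and 0.12 and that of the maternally expressed genes between -0.41 and -0.24 under all alternatives run. The 9 genes with a Prep1 peak became 4 with the peaks of fold enrichment at or above the median, for which the share of all genes was not counted. They became 2 with the window at the start and 17 of 30 within 100 kb, where 46.1% of all genes have a peak. The motif was found in 34.6% of peaks in the stricter form TGANTGACA. The depth limits genes under 20 reads, of which the list holds 3.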

Other observations

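A further list of imprinted genes had values for 20 of its 25 members. Of the 14 with RPKM above 1 in either library, 2 were down-regulated and 2 up-regulated, 14.3% each, against 13.3% and 6.91% of all genes. *Gab1*, an adaptor of growth factor signalling with imprinting known in placenta, had 19247 reads in wild type cells and 1521 in the library labelled *Prep1*-/-, with RPKM of 136 and 12.01 and a ratio of 0.0884 (0.0838 to 0.0931). A Prep1 peak lies within the gene, 20.6 kb from its start. *Pon2*, a lactonase gene near *Sgce* on chromosome 6, had RPKM of 7.60 and 4.12 and a ratio of 0.542 (0.449 to 0.649).

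*Slc38a4*, an amino acid transporter expressed from the paternal allele, had 2348 and 3479 reads, RPKM of 23.1 and 38.3 and a ratio of 1.66 (1.57 to 1.75). *Peg12*, a paternally expressed gene of the *Snrpn* region, had only 29 and 66 reads, RPKM of 1.15 and 2.88 and a ratio of 2.50 (1.62 to 4.09). No peak lies within 20 kb of either start. Of the 14, the interval of the ratio lay below 1 in 6 (42.9%) and above 1 in 4 (28.6%), against 36.3% and 20.7% of all 14254 genes. Those below were *Gab1*, *Pon2*, *Mcts2* with a ratio of 0.756, *H13* with 0.775, *Herc3* with 0.859 and *Sfmbt2* with 0.938. *Atp10a*, at 1.18, lay above 1 with *Slc38a4*, *Peg12* and *Snurf*. *Snurf*, which shares its transcript with *Snrpn*, had a ratio of 1.20 (1.05 to 1.37). *Cdh15* has a Prep1 peak over its start, with 34 and 18 reads.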
